A study of Mus musculus with 6 samples.

Results

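The genes described here encode growth factor receptor tyrosine kinases that are often studied in breast epithelium and breast cancer: Egfr, Erbb2, Erbb3, Met, Igf1r, Fgfr1, Axl, Ddr1, Ddr2 and Epha2. They were found by symbol in a table of 13823 genes, which held 9 of the 10, and Erbb3 was not analysed here. The libraries came from 3 Balb/c mice given isotoosendanin (ITSN), a plant limonoid, by mouth at 1 mg/kg per day, and from 3 Balb/c mice given dimethyl sulfoxide (DMSO) as vehicle. The labels call the tissue breast and the mice male. They do not say whether the tissue was tumour, whether the mice carried grafted cells, how old they were or for how many days they were dosed. The series title concerns triple-negative breast cancer and names TGFβR1, a serine/threonine kinase receptor outside this family, as the protein that ITSN targets.

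A receptor tyrosine kinase spans the plasma membrane and usually binds a ligand outside the cell. Within a pair of receptors, the active kinases phosphorylate tyrosines on each other. Adaptor proteins dock on those tyrosines and pass the signal to the RAS-ERK cascade and to the PI3K-AKT cascade, which drive growth, survival and movement. In breast epithelium the ERBB, MET, IGF1R and FGFR receptors take part in ductal growth, and ERBB2 is amplified in a class of human breast tumours. The values below are transcript levels and say nothing of receptor protein or phosphorylation.

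Levels are in FPKM, the sequenced fragments of a gene divided by its length and by the total of its library, which allows levels of different genes to be compared per length. The depth of the libraries is unknown. Mitochondrial transcripts took 13.5% to 15.6% of the summed FPKM in the ITSN libraries and 17.5% to 32.3% in the vehicle libraries, the highest share being that of vehicle 1. On the first principal component of all tested genes (54.1% of the variance) vehicle 1 stood at 43.2 and the other 5 libraries between -20.1 and 4.63, so the receptor differences below are also given without it. Epithelial markers were present, 12 of 17 being listed, led by Krt18 and Krt8. Their summed level was 534 to 562 FPKM in the ITSN libraries and 361 to 531 FPKM in the vehicle libraries. The low end, 361 FPKM, was that of vehicle 1. Most of it came from Krt18 and Krt8, with means of 284 and 229 FPKM in ITSN and 240 and 192 FPKM in vehicle. The groups overlapped for both genes, whose ITSN means were 1.07 and 1.05 times the means of vehicle 2 and 3. Xist, the transcript that silences an X chromosome in female cells, stood at 20.1 to 29.3 FPKM in all 6 libraries, against the label of male mice.

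The receptors spanned a wide range of levels. The highest mean over the 6 libraries, that of Axl, was 49.8 times the lowest, that of Egfr. The order was Axl, Ddr2, Epha2, Igf1r, Met, Erbb2, Ddr1, Fgfr1 and Egfr. Axl stood above Ddr2, Ddr2 above Epha2, Met above Erbb2 and Erbb2 above Ddr1 in 6 of 6 libraries, with no overlap between the 6 values of each neighbouring pair. The other neighbours overlapped: Epha2 was above Igf1r in 5 libraries, Igf1r above Met in 3, Ddr1 above Fgfr1 in 4 and Fgfr1 above Egfr in 2. Axl, at 89.1 FPKM on average, was higher than 98.2% of the tested genes, whereas Fgfr1 and Egfr were higher than 13.8% and 13.0% of them.

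**Figure D1:**
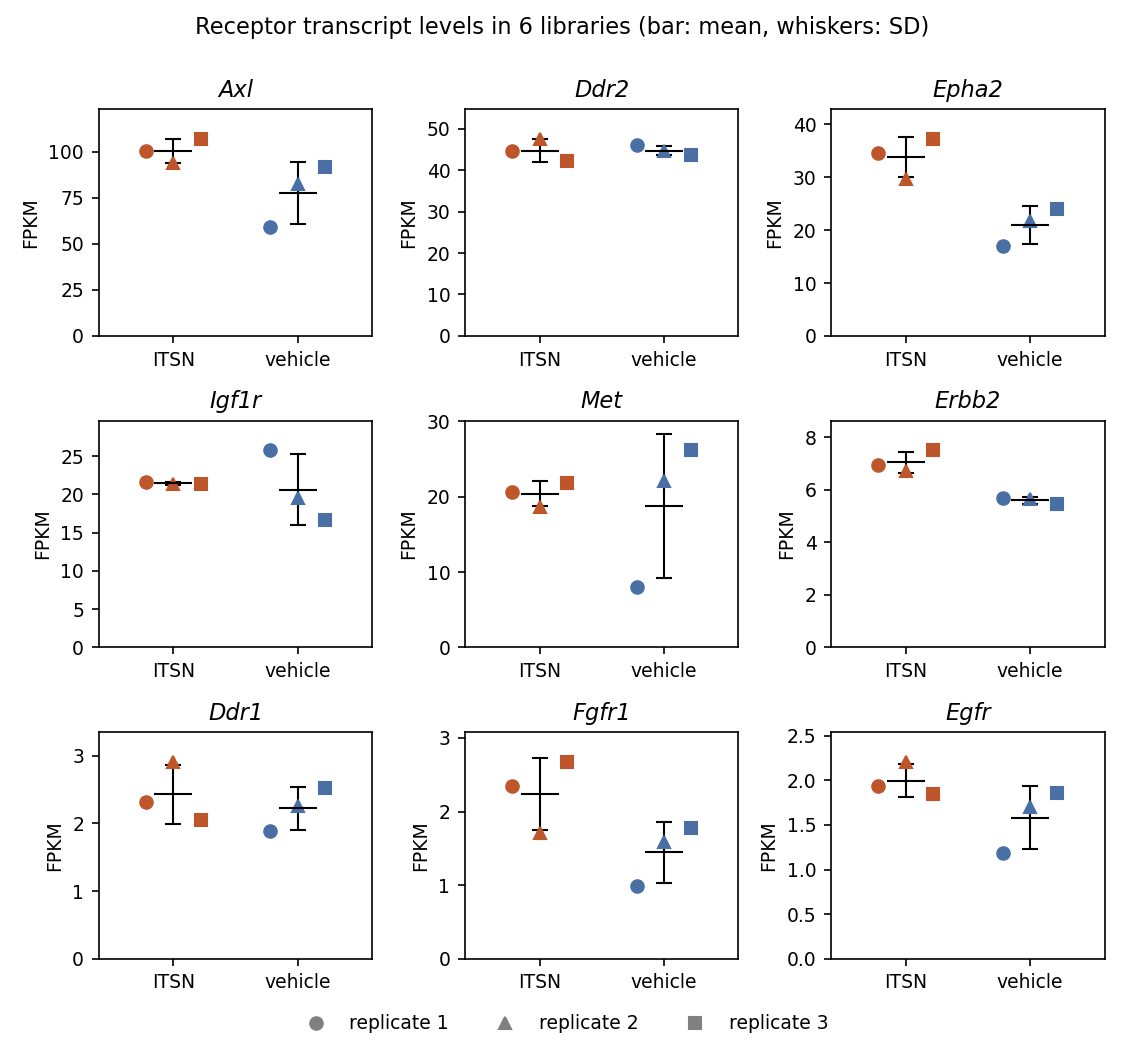
FPKM of each listed receptor in the 3 ITSN libraries (left, orange) and the 3 vehicle libraries (right, blue), 1 point per library with its replicate number as the marker shape, the bar at the group mean and whiskers of 1 SD. The groups do not overlap for Axl, Epha2 and Erbb2, and vehicle 1 (circle) is the lowest point for Axl, Epha2, Met, Ddr1, Fgfr1 and Egfr.

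The promoters of 3 receptors are shown because Epha2 had the largest fitted difference between the groups, Axl the highest level and Ddr2 the difference nearest to 0. They are RefSeq sequences on GRCm38.p6, running from 250 bases before to 50 bases after the RefSeq start, on the strand of the gene, and capitals mark the GC box, searched as GGGCGG on both strands. The Epha2 window is chr4:141300971-141301270 (plus strand), the Axl window chr7:25788684-25788983 (minus strand) and the Ddr2 window chr1:170088895-170089194 (minus strand). The Ddr2 start lies inside the span that the table gives for the gene.
Epha2: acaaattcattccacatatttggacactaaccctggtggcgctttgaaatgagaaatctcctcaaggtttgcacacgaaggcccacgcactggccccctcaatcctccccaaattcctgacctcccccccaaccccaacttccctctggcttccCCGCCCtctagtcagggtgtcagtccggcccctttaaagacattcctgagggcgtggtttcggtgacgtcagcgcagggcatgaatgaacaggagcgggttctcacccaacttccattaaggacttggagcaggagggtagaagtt
Axl: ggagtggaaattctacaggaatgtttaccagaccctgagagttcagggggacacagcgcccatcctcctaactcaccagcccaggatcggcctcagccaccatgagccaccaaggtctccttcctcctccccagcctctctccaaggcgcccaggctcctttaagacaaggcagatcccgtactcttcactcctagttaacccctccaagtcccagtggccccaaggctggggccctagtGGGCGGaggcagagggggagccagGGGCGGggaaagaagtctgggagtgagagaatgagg
Ddr2: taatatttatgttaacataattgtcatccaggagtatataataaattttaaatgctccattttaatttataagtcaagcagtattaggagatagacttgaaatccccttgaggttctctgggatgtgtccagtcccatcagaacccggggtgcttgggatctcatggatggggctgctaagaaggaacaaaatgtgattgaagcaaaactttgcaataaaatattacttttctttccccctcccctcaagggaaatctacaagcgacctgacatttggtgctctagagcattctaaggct
A GC box was present in 35.66% of the 32851 promoters in the RefSeq table. Epha2 had 1, Axl had 2 and Ddr2 had none. The Ddr2 window was 39.0% GC with 2 CpG dinucleotides, the Axl window 60.3% with 6 and the Epha2 window 54.7% with 10, beside medians of 52.7% and 7 over all promoters. Of the 9 receptors 8 matched the RefSeq table, and Fgfr1 did not. The most GC-rich windows among genes with a single window in the table were those of Igf1r (76.0% GC, 48 CpG) and Met (75.7% GC, 34 CpG). The AP-1 motif, TGANTCA on both strands, was in 7.808% of all promoters, once in the Met window and once in 1 of the 4 Ddr1 windows. The TEAD motif, GGAATG on both strands, was in 14.66% of all promoters, at 2 places in the Epha2 window and at 1 each in those of Axl and Erbb2. The TATA motif, TATAAA on both strands, was in 13.62% of all promoters and once in the Ddr2 window.

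No receptor transcript passed the test between ITSN and vehicle when all 6 libraries were used. Limma on log2(FPKM + 1) called 0 of the 9 receptors at an adjusted p of 0.05, and 7 of 12257 tested genes, 0.0571% of them. At an unadjusted p under 0.05 limma counted 2 receptors, Epha2 and Erbb2, where 20.9% of all tested genes reached that level. The fitted difference was above 0 for 8 of the 9, with a median of 0.26, beside 64.0% of all tested genes and a median of 0.09. The ITSN values all lay above the vehicle values for 3 receptors, Axl, Epha2 and Erbb2, where 21.8% of tested genes did so. No receptor had its groups apart in the lower direction, where 7.37% of tested genes did. With quantile normalization the median of all genes was -0.02, and that of the receptors 0.17, with 7 above 0, beside 46.9% of all tested genes. In bulk tissue, fewer cells of a type and less RNA per cell cannot be told apart.

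**Figure D2:**
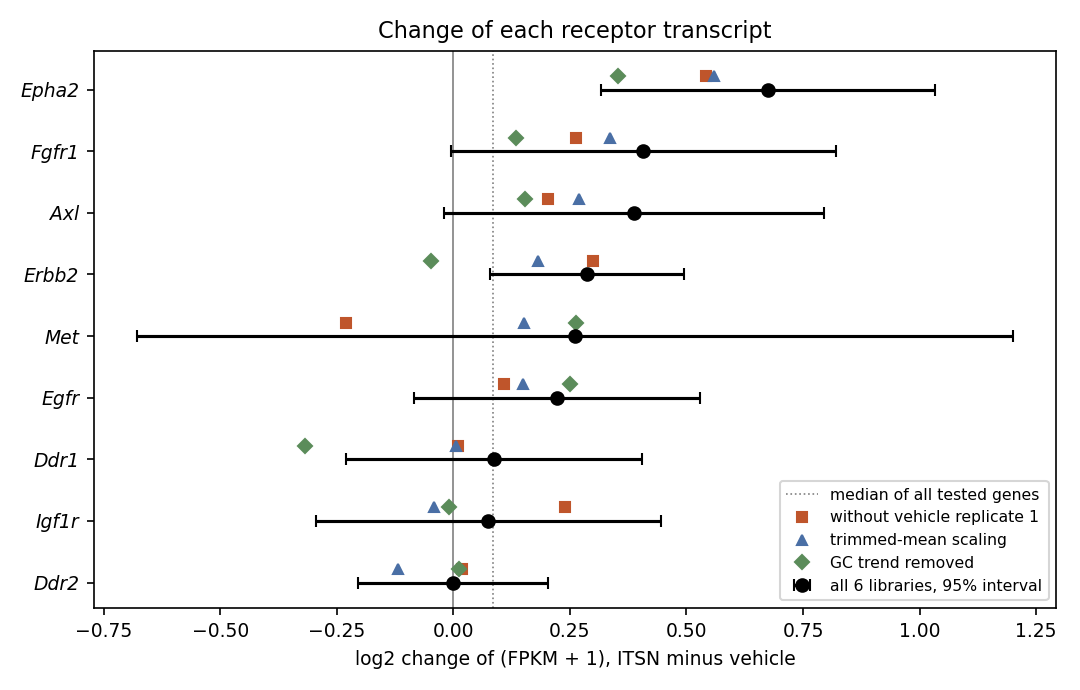
Fitted log2 difference of (FPKM + 1), ITSN minus vehicle, for each receptor: black points with 95% intervals from all 6 libraries, and coloured points for the same fit with vehicle 1 left out, with trimmed-mean scaling and with the GC trend removed. The dotted line is the median of all tested genes, and the intervals of Epha2 and Erbb2 lie above 0, while those of the other 7 reach 0 or below.

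Epha2 binds ephrin-A ligands on neighbouring cells and is often abundant in cancers of epithelial origin. The gene lies at chr4:141301240-141329384 on the plus strand. It stood at 34.6, 29.7 and 37.3 FPKM in ITSN 1, 2 and 3, against 17.1, 21.7 and 24.1 FPKM in vehicle 1, 2 and 3. The lowest ITSN library was above the highest vehicle library, and vehicle 1 was the lowest of the 6. The ratio of the group means was 1.62, and the log2 difference was 0.67 (SE 0.15, 95% interval 0.32 to 1.03, limma adjusted p = 0.0905). The exact two-sided permutation test of 3 against 3 gave p = 0.1, the smallest it can give. Without vehicle 1, Epha2 rose in the ITSN libraries by 0.54 on the log2 scale and passed (limma adjusted p = 0.0496), in a fit in which 5.49% of tested genes passed. It was the only one of the 9 receptors to pass there. With the GC trend also removed the difference was 0.30 (limma adjusted p = 0.096), and with all 6 libraries and the GC trend removed it was 0.35 (limma adjusted p = 0.201). The mitochondrial share was 14.3%, 15.6% and 13.5% in ITSN 1, 2 and 3, and 32.3%, 22.4% and 17.5% in vehicle 1, 2 and 3. Over all 6 libraries, Epha2 was higher where that share was lower. The share parted the groups also without vehicle 1, so it cannot be told apart from treatment. The part of that share, and of the place of vehicle 1 on the first component, in the Epha2 result was not tested.

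The profile of Epha2 over the 6 libraries, as log2(FPKM + 1) centred on the mean of the gene, was nearest to that of Fgfr1 among the receptors, with a root mean square difference of 0.140. Among other tested genes with a mean of at least 5 FPKM, the nearest were Ncln (0.0276), which encodes nicalin, Mfsd12 (0.0369), a lysosomal transporter, and Col16a1 (0.0444), a minor collagen chain. Their own log2 differences were 0.68, 0.69 and 0.67, and none passed with all 6 libraries (limma adjusted p = 0.098, 0.0858 and 0.111). Their transcripts had a GC content of 60.9%, 61.8% and 61.4%, and that of Epha2 was 56.9%. These likenesses are descriptions over 6 libraries, without a test.

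Axl is the receptor for the ligand GAS6 and is known for its expression in mesenchymal and migrating cancer cells. The gene lies at chr7:25757273-25788705 on the minus strand. It stood at 100.3, 93.8 and 107.0 FPKM in ITSN 1, 2 and 3, against 58.9, 82.5 and 91.7 FPKM in vehicle 1, 2 and 3. The groups did not overlap, but ITSN 2 was close to vehicle 3, and vehicle 1 was far below the rest. The means were 100.4 ± 6.60 FPKM in ITSN and 77.7 ± 16.9 FPKM in vehicle (SD, n = 3 each). The log2 difference of 0.39 (SE 0.17, 95% interval -0.02 to 0.80) did not pass (limma adjusted p = 0.261, exact permutation p = 0.1). Without vehicle 1 it was 0.20. Its nearest profile among the receptors was that of Fgfr1, at a root mean square difference of 0.0896, the smallest of any pair of receptors.

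Met is the receptor for hepatocyte growth factor (HGF), which stimulates epithelial branching and migration. The gene lies at chr6:17463800-17573980 on the plus strand. It stood at 20.7, 18.6 and 21.8 FPKM in ITSN 1, 2 and 3, against 8.01, 22.1 and 26.1 FPKM in vehicle 1, 2 and 3. Vehicle 1 alone was low, at 0.332 of the mean of vehicle 2 and 3, and those 2 were above all ITSN libraries. The log2 difference was 0.26 (SE 0.39, 95% interval -0.68 to 1.20, limma adjusted p = 0.752, exact permutation p = 1.0), and -0.23 without vehicle 1 (limma adjusted p = 0.207). The direction for Met thus rests on that single library. It is the receptor whose vehicle libraries differed most, by 3.26 times between the lowest and the highest.

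Igf1r, the receptor for insulin-like growth factors and a promoter of survival and mammary growth, went the other way in vehicle 1. The gene lies at chr7:67952827-68233668 on the plus strand. It stood at 21.6, 21.3 and 21.4 FPKM in ITSN 1, 2 and 3, against 25.8, 19.5 and 16.6 FPKM in vehicle 1, 2 and 3. The ITSN values lay close together and inside the vehicle range. The log2 difference was 0.07 (SE 0.15, 95% interval -0.30 to 0.44, limma adjusted p = 0.826, exact permutation p = 0.7). After trimmed-mean scaling it was -0.04. Without vehicle 1 it was 0.24, and without vehicle 3 it was -0.06.

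Of the ERBB receptors, Erbb2 encodes the member that has no known ligand of its own and signals by pairing with the others. Egfr encodes the receptor for EGF, amphiregulin and TGF-α. Erbb2, at chr11:98412470-98437716 on the plus strand, stood at 6.94, 6.73 and 7.51 FPKM in ITSN 1, 2 and 3, against 5.71, 5.64 and 5.45 FPKM in vehicle 1, 2 and 3. The groups did not overlap, and vehicle 1 was here the highest of its group. The log2 difference was 0.29 (SE 0.09, 95% interval 0.08 to 0.50, limma adjusted p = 0.140, exact permutation p = 0.1), and it became -0.05 once the GC trend was removed. Without vehicle 1 it was 0.30. An exon of Erbb2 overlaps Mien1 on the opposite strand, and whether counting used strand is not given, so reads of these genes may be mixed.

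Egfr, at chr11:16752203-16918158 on the plus strand, stood at 1.94, 2.21 and 1.85 FPKM in ITSN 1, 2 and 3, against 1.19, 1.70 and 1.86 FPKM in vehicle 1, 2 and 3. The groups overlapped, ITSN 3 and vehicle 3 being alike. The log2 difference was 0.22 (SE 0.13, limma adjusted p = 0.381, exact permutation p = 0.2), and 0.11 without vehicle 1. Egfr and Erbb2 thus differed in level in every library, the ratio of Erbb2 to Egfr being 3.58, 3.05 and 4.06 in ITSN 1, 2 and 3, and 4.80, 3.33 and 2.93 in vehicle 1, 2 and 3. The ratios of the 2 groups overlapped.

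Fgfr1, a fibroblast growth factor receptor that is amplified in some human breast cancers, lies at chr8:25513654-25575718 on the plus strand. It stood at 2.34, 1.71 and 2.68 FPKM in ITSN 1, 2 and 3, against 0.985, 1.59 and 1.78 FPKM in vehicle 1, 2 and 3. Only ITSN 2 lay inside the vehicle range. The log2 difference of 0.41 (SE 0.17) did not pass (limma adjusted p = 0.245, exact permutation p = 0.2), and without vehicle 1 it was 0.26. At these levels the pseudocount of 1 FPKM makes fitted differences smaller than the ratio of the FPKM values, as it does for Egfr and Ddr1. An exon of Fgfr1 overlaps Gm16159 on the opposite strand.

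Ddr1 and Ddr2 encode receptors for fibrillar collagen, Ddr1 mostly in epithelial cells and Ddr2 mostly in mesenchymal cells. Ddr2, at chr1:169972307-170110762 on the minus strand, stood at 44.6, 47.6 and 42.1 FPKM in ITSN 1, 2 and 3, against 46.0, 44.6 and 43.7 FPKM in vehicle 1, 2 and 3. The ITSN values enclosed all vehicle values. The means were 44.8 ± 2.74 FPKM in ITSN and 44.8 ± 1.19 FPKM in vehicle (SD, n = 3 each). The log2 difference of -0.0011 had a 95% interval of -0.20 to 0.20 (limma adjusted p = 0.996, exact permutation p = 1.0), and it was 0.02 without vehicle 1. In vehicle 1 the Ddr2 level was 1.04 times the mean of vehicle 2 and 3, so this receptor did not share the low values that Axl, Epha2 and Met had in that library. An exon of Ddr2 overlaps 3110045C21Rik on the opposite strand.

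Ddr1, at chr17:35681567-35704621 on the minus strand, stood at 2.32, 2.91 and 2.05 FPKM in ITSN 1, 2 and 3, against 1.88, 2.25 and 2.53 FPKM in vehicle 1, 2 and 3. The groups overlapped. The log2 difference was 0.09 (SE 0.13, limma adjusted p = 0.757, exact permutation p = 0.6), and -0.32 after removal of the GC trend. It was -0.05 under quantile normalization, 0.01 without vehicle 1 and -0.01 without ITSN 2. An exon of Ddr1 overlaps Gm4577 on the opposite strand. The ratio of Ddr2 to Ddr1 was 19.2, 16.4 and 20.5 in ITSN 1, 2 and 3, and 24.4, 19.8 and 17.3 in vehicle 1, 2 and 3, with overlapping groups.

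Across the receptors, vehicle 1 was the lowest of the 6 libraries for Axl, Epha2, Met, Ddr1, Fgfr1 and Egfr, and the highest for Igf1r. Over all tested genes, vehicle 1 was the lowest for 52.1%. For 9 of the 9 receptors the value of vehicle 2 fell between those of vehicle 1 and 3, as it did for 73.2% of all tested genes. ITSN 1 lay between the other 2 ITSN libraries for 8 receptors and for 63.7% of all tested genes.

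**Figure D3:**
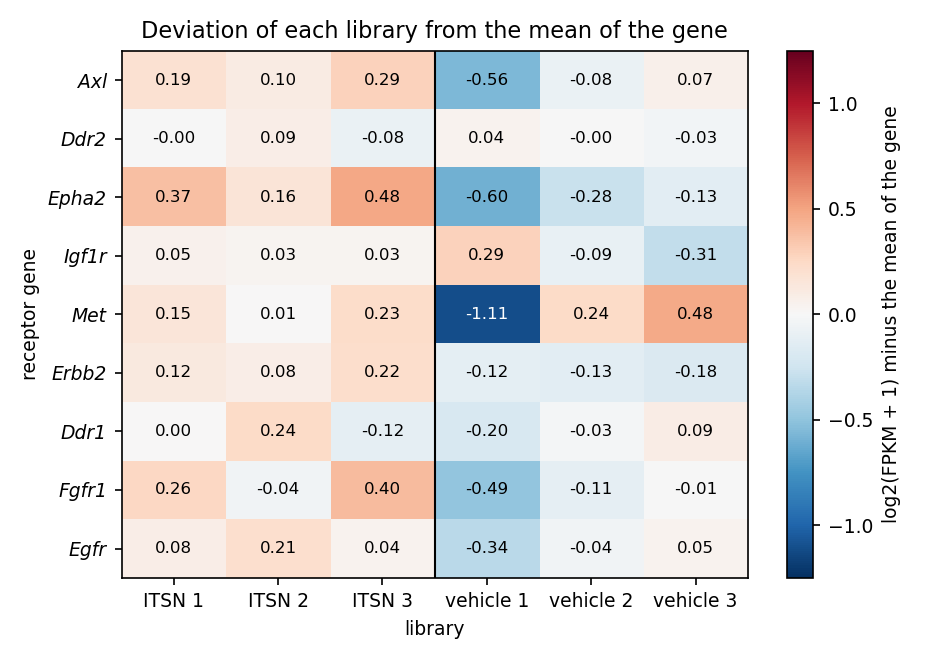
Deviation of each library from the mean of the gene on the log2(FPKM + 1) scale, for the 9 receptors (ordered by level, top to bottom) in 3 ITSN and 3 vehicle libraries. The lowest cell is Met in vehicle 1 at -1.11, Epha2 is above its mean in the 3 ITSN libraries and below it in the 3 vehicle libraries, and Ddr2 stays within 0.09 of its mean.

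The receptor differences were read beside those of genes of like base composition, because the differences of all genes moved with transcript GC content. The receptors had a median GC content of 54.2%, against 48.6% for all tested genes. Among the 896 tested genes within 1 percentage point of Epha2 the median log2 difference was 0.32, and the value of Epha2, 0.67, lay above it. For Erbb2, at 57.3% GC, the median of 857 such genes was 0.33, above its own 0.29. For Ddr1, at 59.7% GC, the median of 440 genes was 0.42, against its own 0.09. For Axl the median was 0.24 and for Fgfr1 it was 0.28, both below their own values. Ddr2, Met and Egfr, at 45.1%, 45.5% and 44.4% GC, had such medians of -0.01, 0.00 and -0.02. Igf1r, at 49.4% GC, had one of 0.08, against its own 0.07. With the GC trend removed, 6 of the 9 receptors were above 0, with a median of 0.13. Of all genes in that fit 51.0% were above 0, with a median of 0.004. The part of base composition in any single result was not tested.

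**Figure D4:**
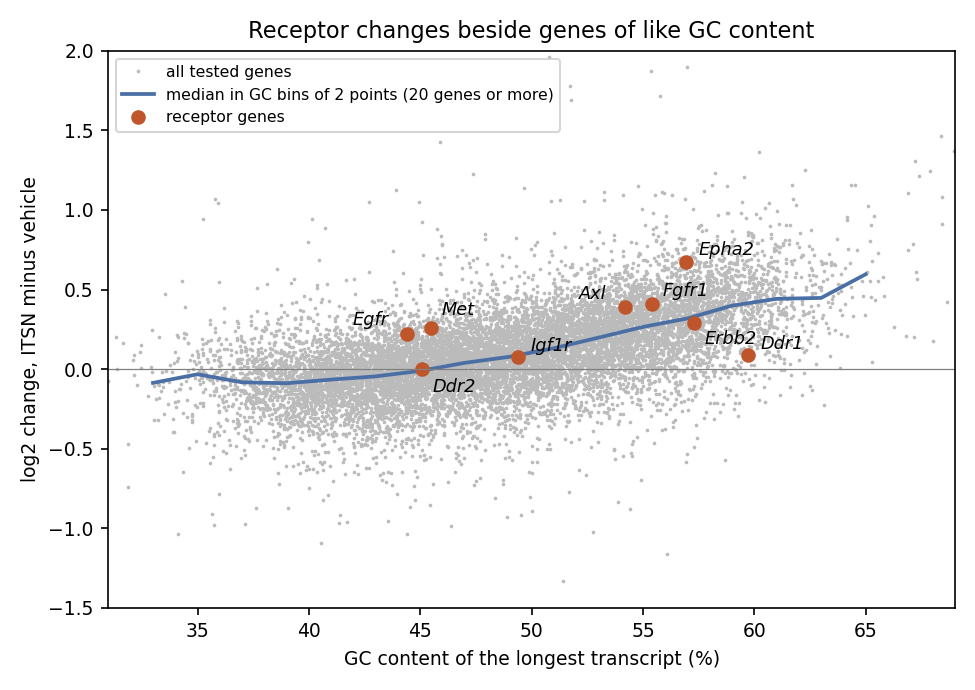
Log2 difference of (FPKM + 1), ITSN minus vehicle, against the GC content of the longest transcript, for all tested genes (grey points), their median in bins of 2 points (blue line) and the 9 receptors (orange points). The axes leave out 23 outlying genes. Epha2 lies above the line, and Ddr1 and Erbb2 lie below it.

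The genes around the receptors came from 13 lists of 214 genes, of which 153 were listed and 143 tested. Limma called 0 of the 143, beside 0.0571% of all tested genes. It counted 30 at an unadjusted p under 0.05, beside 20.9% of all tested genes. The fitted difference was above 0 for 98 of them, with a median of 0.11 beside 0.09 for all tested genes, and for 73 of them after trimmed-mean scaling, with a median of 0.01 beside -0.01 for all tested genes. The groups did not overlap for 34 with ITSN higher and for 8 with ITSN lower, beside 21.8% and 7.37% of all tested genes. Without vehicle 1, 12 of the 143 passed, 9 higher and 3 lower in ITSN, beside 5.49% of all tested genes (410 higher and 263 lower). With the GC trend also removed 0 of those 12 passed, and their log2 differences ran from 0.75 for Epha1 over 0.58 for Gpc1 and 0.44 for Spry4 to 0.15 for Socs3, 0.14 for Ephb4 and 0.00 for Akt1 among those higher in ITSN. Exons of Tgfa, Col5a1, Igfbp7, Rasa1 and Ccnd1, named below, overlap a gene on the opposite strand, as do those of other genes where this is said. Exons of Krt8 and Pdgfra do so too, and those of Hgf, Pdgfra and S100a4 overlap a gene on the same strand.

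No ligand gene passed the test with all 6 libraries. Of 11 EGF family and neuregulin ligands 4 were tested and 0 passed. Hbegf, heparin-binding EGF, was the most abundant, at 47.7, 46.3 and 48.5 FPKM in ITSN 1, 2 and 3, against 47.0, 42.5 and 41.2 FPKM in vehicle 1, 2 and 3 (log2 difference 0.12, limma adjusted p = 0.466). Tgfa, which encodes TGF-α, stood at 12.4, 10.5 and 12.5 FPKM in ITSN, against 10.4, 1.05 and 8.90 FPKM in vehicle. Its log2 difference of 1.05 (limma adjusted p = 0.388) owes its size to vehicle 2 and was 0.26 without that library. Fgf11, a member of the FGF family that acts inside cells, was the only one of 21 FGF genes tested, with a log2 difference of 0.31 (limma adjusted p = 0.314), or 0.17 without vehicle 1.

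The ligands of Met, Igf1r and Axl are named for their known pairing, after their values had been seen. Hgf stood at 0.416 to 0.569 FPKM in ITSN and 0.324 to 0.825 FPKM in vehicle, and Igf1 at 0.427 to 1.06 FPKM in ITSN and 0.191 to 1.32 FPKM in vehicle. Both were below the filter, so their receptors were far more abundant per length than they were. Gas6, the ligand of Axl, stood at 4.61, 3.31 and 5.05 FPKM in ITSN 1, 2 and 3, against 0.896, 3.27 and 3.96 FPKM in vehicle 1, 2 and 3 (log2 difference 0.62, limma adjusted p = 0.382). Without vehicle 1 the Gas6 difference was 0.20. The ratio of Axl to Gas6 was 21.8, 28.3 and 21.2 in ITSN 1, 2 and 3, and 65.8, 25.2 and 23.2 in vehicle 1, 2 and 3, vehicle 1 standing apart. Gas6 overlaps Tmem255b on the opposite strand. Pros1, protein S, which activates the related receptors Tyro3 and Mertk, had a log2 difference of -0.16 (limma adjusted p = 0.622). St14, matriptase, a protease that activates HGF, stood at 8.53, 8.09 and 8.94 FPKM in ITSN, against 6.58, 6.71 and 6.96 FPKM in vehicle, groups that did not overlap (log2 difference 0.30, limma adjusted p = 0.126).

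Of the ephrin-A ligands of Epha2, 3 of 5 were tested. Efna5 had the highest mean, at 23.1, 26.9 and 21.7 FPKM in ITSN 1, 2 and 3, against 35.3, 25.5 and 19.8 FPKM in vehicle 1, 2 and 3 (log2 difference -0.13, limma adjusted p = 0.764). Its groups overlapped, and without vehicle 1 the difference was 0.08. Efna4 stood at 5.19, 4.98 and 4.76 FPKM in ITSN, against 3.53, 3.53 and 3.00 FPKM in vehicle, without overlap (log2 difference 0.46, limma adjusted p = 0.085). Without vehicle 1, Efna4 passed, as Epha2 did (log2 difference 0.49, limma adjusted p = 0.0478). In that fit 5.49% of all tested genes passed. With the GC trend also removed the Efna4 difference was 0.25 (limma adjusted p = 0.262). Exons of Efna4 overlap 4731419I09Rik on the opposite strand. Efna1 was named after its values were seen. It stood at 12.3, 12.2 and 13.7 FPKM in ITSN, against 11.3, 9.54 and 4.12 FPKM in vehicle, without overlap. The Efna1 log2 difference was 0.65 (limma adjusted p = 0.299), and 0.26 without vehicle 3, its lowest library.

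All 6 fibrillar collagen genes, whose products bind Ddr1 and Ddr2, were tested and 0 passed. Their log2 differences were all above 0, with a median of 0.69, and 4 of them were above 0 without vehicle 1, with a median of 0.05. Col1a1, the main chain of type I collagen, stood at 63.8, 38.0 and 85.1 FPKM in ITSN 1, 2 and 3, against 12.3, 48.3 and 66.4 FPKM in vehicle 1, 2 and 3 (log2 difference 0.77, limma adjusted p = 0.530). Its groups overlapped, vehicle 1 was the lowest, and without it the difference was 0.06. Col5a1, a chain of type V collagen, did not overlap between the groups (log2 difference 0.37, limma adjusted p = 0.194). Both values stand beside a Ddr2 level that was alike in the 2 groups.

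Of the IGF binding proteins, which hold insulin-like growth factors outside the cell, 4 were tested and 0 passed. Igfbp4 had a log2 difference of 0.08 (limma adjusted p = 0.726), and Igfbp7, at 38.2 to 44.5 FPKM in ITSN and 45.7 to 46.3 FPKM in vehicle, one of -0.16 (limma adjusted p = 0.354). The insulin receptor Insr, related to Igf1r, followed it from library to library: the ratio of Igf1r to Insr was 1.59, 1.54 and 1.58 in ITSN 1, 2 and 3, and 1.66, 1.57 and 1.53 in vehicle 1, 2 and 3. Insr was chosen after its values were seen.

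Among 20 other receptor tyrosine kinases tested, 0 passed with all 6 libraries. Ryk, a receptor for Wnt ligands with an inactive kinase, had the highest mean, and stood at 19.2 to 20.1 FPKM in ITSN and 21.8 to 24.4 FPKM in vehicle (log2 difference -0.21, limma adjusted p = 0.226). Ephb4, a receptor for ephrin-B2, stood at 22.1, 21.7 and 20.2 FPKM in ITSN 1, 2 and 3, against 13.3, 15.9 and 15.3 FPKM in vehicle 1, 2 and 3 (log2 difference 0.50, limma adjusted p = 0.0766). Without vehicle 1, Ephb4 (log2 difference 0.43, limma adjusted p = 0.0407) and Epha1 (0.93, limma adjusted p = 0.0354), a relative of Epha2, passed. Ephb4 overlaps Zan and Epha1 overlaps Zyx, each on the opposite strand. Mertk, a relative of Axl, had a log2 difference of -0.07 (limma adjusted p = 0.833), which was 0.05 without vehicle 3 and 0.02 without ITSN 3. The ratio of Axl to Mertk was 22.2, 17.5 and 27.2 in ITSN 1, 2 and 3, and 14.3, 17.7 and 15.6 in vehicle 1, 2 and 3. Epha1 and Mertk were named after their values were seen.

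Co-receptors and sheddases help ligands reach or leave the receptors, and 0 of 11 tested passed with all 6 libraries. Sdc4, a heparan sulfate carrier on the cell surface, had the highest mean (log2 difference 0.22, limma adjusted p = 0.416). Gpc1, glypican-1, a co-receptor for FGF and other heparin-binding ligands, stood at 32.3, 36.5 and 32.0 FPKM in ITSN 1, 2 and 3, against 22.6, 18.3 and 17.0 FPKM in vehicle 1, 2 and 3. Its groups did not overlap, and vehicle 1 was the highest of its group. The log2 difference was 0.78 (SE 0.13, limma adjusted p = 0.0711), and Gpc1 passed without vehicle 1 (0.89, limma adjusted p = 0.0243). Its exons overlap Ankmy1 on the opposite strand.

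Among 21 tested adaptors and kinases that bind the receptors, 7 had ITSN above vehicle without overlap and 3 below, beside 21.8% and 7.37% of all tested genes, and 0 passed with all 6 libraries. Crk, an SH2 and SH3 adaptor, stood at 17.1, 18.9 and 17.6 FPKM in ITSN 1, 2 and 3, against 19.4, 23.2 and 36.1 FPKM in vehicle 1, 2 and 3 (log2 difference -0.48, limma adjusted p = 0.259). Without vehicle 3, the highest library, the Crk difference was -0.24. Shc1, which links receptors to GRB2 and RAS, stood at 15.8, 15.1 and 15.4 FPKM in ITSN 1, 2 and 3, against 10.01, 11.4 and 11.5 FPKM in vehicle 1, 2 and 3 (log2 difference 0.46, limma adjusted p = 0.0755). Shc1 (0.40, limma adjusted p = 0.0407) and Stat3 (0.37, limma adjusted p = 0.0434), a transcription factor of the JAK-STAT pathway, passed without vehicle 1. Stat3 overlaps Stat5a on the opposite strand.

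Among 24 inhibitors and ubiquitin ligases, 19 were above 0, or 11 after trimmed-mean scaling, beside 64.0% and 48.1% of all tested genes. With all 6 libraries 0 of the 24 passed. Nedd4, a ubiquitin ligase, had the highest mean (log2 difference -0.16, limma adjusted p = 0.663). Spry4, a Sprouty protein that damps RAS-ERK signalling, stood at 3.08, 3.01 and 2.83 FPKM in ITSN 1, 2 and 3, against 2.30, 2.02 and 1.59 FPKM in vehicle 1, 2 and 3 (log2 difference 0.43, limma adjusted p = 0.117). Without vehicle 1, Spry4 (0.51, limma adjusted p = 0.0492) and Socs3 (0.45, limma adjusted p = 0.0492), a suppressor of cytokine signalling, passed in the higher direction. In the same fit Ptpn2 (-0.37, limma adjusted p = 0.0465), a tyrosine phosphatase, and Cd2ap (-0.35, limma adjusted p = 0.0488), an adaptor in receptor endocytosis, passed in the lower direction.

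In the cascades downstream, 0 of 15 tested RAS-ERK genes and 0 of 19 tested PI3K-AKT genes passed with all 6 libraries. Rasa1, a GTPase activator that switches RAS off, had the highest mean of the first (log2 difference -0.13, limma adjusted p = 0.478), and Map2k2, which encodes MEK2, the smallest p (0.53, limma adjusted p = 0.120). Akt1 was highest in mean and smallest in p of the second, at 59.8, 60.9 and 60.6 FPKM in ITSN 1, 2 and 3, against 36.9, 47.1 and 48.6 FPKM in vehicle 1, 2 and 3 (log2 difference 0.45, limma adjusted p = 0.115). Without vehicle 1, Akt1 passed in the higher direction (0.33, limma adjusted p = 0.0439) and Pik3r1, the regulatory subunit of PI3K, in the lower direction (-0.35, limma adjusted p = 0.0481).

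A further list held transcripts that ERK signalling can induce, and ERK activity itself was not measured. Of 15 tested, 12 were above 0, with a median of 0.09, beside 64.0% of all tested genes. After trimmed-mean scaling 7 were above 0, with a median of -0.02, beside 48.1% of all tested genes. With all 6 libraries 0 of these 15 transcripts passed. Ccnd1, cyclin D1, was the most abundant of them, at 161, 171 and 152 FPKM in ITSN 1, 2 and 3, against 150, 160 and 161 FPKM in vehicle 1, 2 and 3 (log2 difference 0.04, limma adjusted p = 0.839). Its groups overlapped, and trimmed-mean scaling put it at -0.08. Spry4, above, belongs to this list too. Socs3, Stat3, Ptpn2, Cd2ap and Pik3r1 were named because they passed without vehicle 1, after their values were seen.

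**Figure D5:**
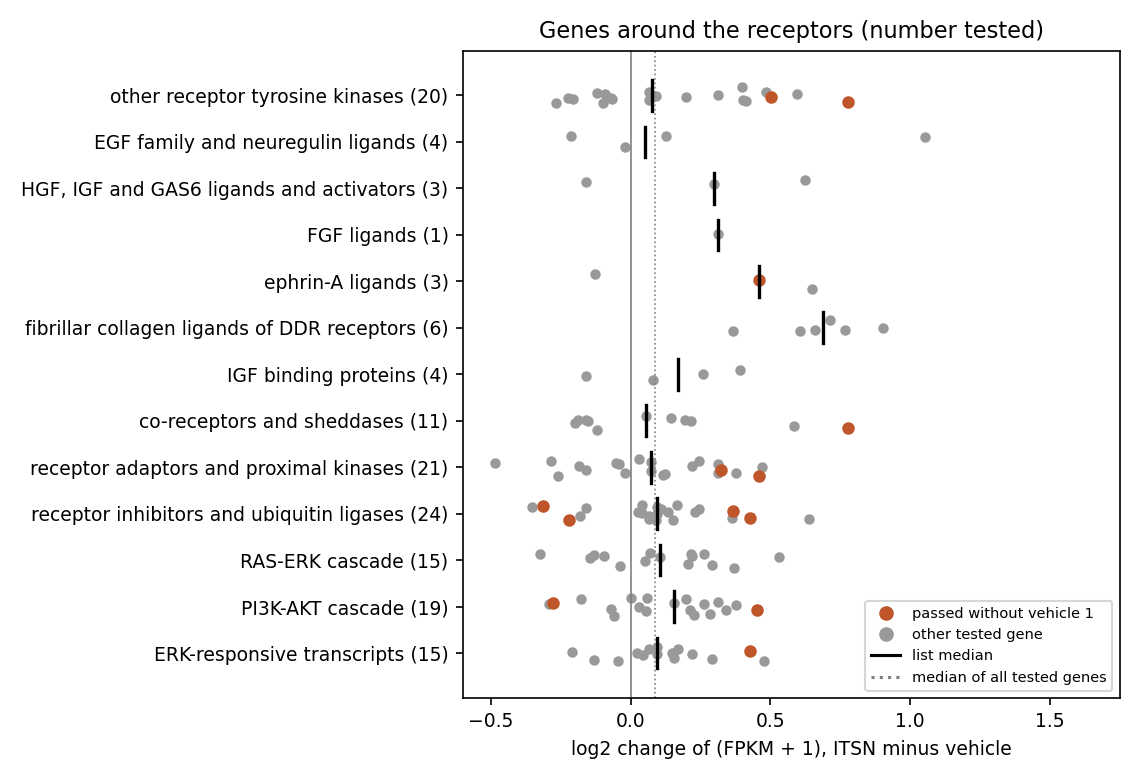
Log2 difference of (FPKM + 1), ITSN minus vehicle, with all 6 libraries, for each tested gene of 13 lists around the receptors (1 point per gene, black bar at the list median, dotted line at the median of all tested genes). Orange marks the genes that passed without vehicle 1, and the fibrillar collagens have the highest list median, 0.69.

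Markers of several cell types had their highest or lowest sum in vehicle 1. Fibroblast and mesenchymal markers, 12 of 13 listed, were led by Vim and S100a4. They summed to 585 to 603 FPKM in ITSN and 366 to 727 FPKM in vehicle, with 366 in vehicle 1. Vim and S100a4, with ITSN means of 272 and 246 FPKM, made most of that sum. Pdgfrb of that list was lowest in vehicle 1, at 2.00, 5.27 and 7.21 FPKM in vehicle 1, 2 and 3. Pdgfra of that list was highest in vehicle 1, at 14.8, 9.35 and 6.82 FPKM. Pdgfra and Pdgfrb were chosen after their values were seen. Macrophage markers, 9 of 9 listed and led by C1qa and C1qb, summed to 280 to 340 FPKM in ITSN and 120 to 331 FPKM in vehicle, with 120 in vehicle 1. Of the receptors, Axl, Met, Epha2, Ddr1, Fgfr1 and Egfr were also lowest in vehicle 1, as were 52.1% of all tested genes. Ddr2, at 46.0 FPKM in vehicle 1, was not. Neutrophil markers, 7 of 8 listed and led by S100a9 and S100a8, summed to 118 to 135 FPKM in ITSN and 109 to 250 FPKM in vehicle, with 250 in vehicle 1. Endothelial markers, 8 of 9 listed and led by Cdh5 and Pecam1, summed to 22.3 to 31.2 FPKM in ITSN and 25.0 to 38.5 FPKM in vehicle, with 38.5 in vehicle 1. Skeletal muscle markers, 10 of 10 listed and led by Tnnt3 and Acta1, summed to 6.12 to 90.1 FPKM in ITSN and 2.66 to 12.4 FPKM in vehicle. Of the T and NK cell markers 6 of 10 were listed and 0 passed the filter. The epithelial markers Krt5, Cldn3, Esrp1, Esrp2 and Ovol1 were not among the listed genes. The part of these cell types in any receptor difference was not tested.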

How the data were processed

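RNA sequencing libraries of 6 mice were used, grouped by the label of treatment. Per the labels' protocols, total RNA was purified with TRIzol and columns, and libraries carried dUTP strand marks after mRNA enrichment or ribosomal RNA removal. The only genome build named is mm10, per the submitters' processing notes. What aligned and quantified the reads, on which annotation and with what use of strand, is not given in the sources used. A single table deposited by the authors gave FPKM for 13823 genes, per the file headers, and 1 blank line. The higher group mean was at least 0.5001 FPKM for every gene. One ITSN column was matched by its description. Of 500 low genes the commonest ratio between libraries held at most 1.0%, so reads were not recovered, and depth and counting error are unknown.

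The 12257 genes that reached 1 FPKM in 3 or more libraries were tested as log2(FPKM + 1), which understates the change of low genes, in limma 3.58.1 under R 4.3.3 (two-sided, lmFit, then eBayes with trend), with p-values adjusted over them by the Benjamini-Hochberg method and a threshold of 0.05. Exact permutation tests compared FPKM. Members and lists were chosen with earlier results of these data known. Named genes were the members, the most abundant tested gene and the one with the smallest p of each list, and the profiles nearest to Epha2; others are said to be chosen after their values were seen. GC content came from the longest transcript in GENCODE M21, matched for 99.7% of genes, and the GC trend was a lowess curve of span 0.3 removed from each library. Alternatives covered pseudocount, filter, scaling, GC trend, replicate block, variance prior and each library left out. The fit was tested on simulated data. Other steps ran in scipy 1.17.1, numpy 2.4.6 and pandas 2.3.3 under Python 3.11.15.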

Additional observations from a re-analysis of the deposited data

How the results depend on the processing

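With all 6 libraries 2 of 9 receptors had an unadjusted p under 0.05 in limma, beside 20.9% of all tested genes. The alternatives counted 1 to 4 receptors at that level. There was 1 without ITSN 1, where 1421 of all tested genes reached it, and 1 after trimmed-mean scaling, where 2826 did. There were 4 without vehicle 3, where 3142 did. At the adjusted threshold limma called 0 receptors with all 6 libraries and 0 under 17 of 18 alternatives. The exception was 1, Epha2, without vehicle 1, so leaving out single libraries gave 0 to 1. The count over all genes, 7, was 19 with a filter of 5 FPKM (which leaves Ddr1, Fgfr1 and Egfr without a value), 108 after trimmed-mean scaling (58 higher and 50 lower, against 6 and 1), 93 after quantile normalization (62 and 31), 79 after rescaling to genes outside the mitochondrial genome, and 93 with the GC trend removed and without vehicle 1. Leaving out single libraries gave 1 to 673 genes, 673 without vehicle 1, 2 without vehicle 2, 4 without ITSN 1, 2 without ITSN 2 and 1 without ITSN 3. Libraries of the same replicate number had correlations of deviations from group means of -0.0038, -0.136 and 0.242. These have no reference value and cannot decide whether the libraries were paired. The number of ITSN 3 is that of its title, and its description gives another number, so the replicate block rests on the titles. With the replicate block limma called 2 genes and 0 receptors, and with the GC trend removed as well 0 genes (1210 at an unadjusted p under 0.05). Epha2 was above 0 under all 18 alternatives, at 0.30 to 0.78, with limma adjusted p from 0.0496 to 0.465. Axl, Fgfr1 and Egfr were also above 0 wherever they had a value, but fell as low as 0.050, 0.069 and 0.083. They passed under 0 of the alternatives.

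Other directions turned. Trimmed-mean scaling gave Igf1r -0.041, Igfbp4 -0.039 and Ccnd1 -0.077. Quantile normalization gave Ddr1 -0.049 and Igfbp4 -0.025. Rescaling outside the mitochondrial genome gave Igf1r -0.0095, Igfbp4 -0.0059 and Ccnd1 -0.044. GC trend removal, with or without the replicate block, gave Erbb2 -0.048, Igf1r -0.0090, Ddr1 -0.32, Ddr2 0.011, Hbegf -0.019, Igfbp4 -0.18 and Ccnd1 -0.085. GC trend removal without vehicle 1 gave Met -0.17, Ddr1 -0.32, Ddr2 0.086, Efna5 0.15, Col1a1 -0.25, Igfbp4 -0.015, Akt1 -0.00044 and Ccnd1 -0.047. Single libraries left out gave ranges of -0.23 to 0.57 for Met, -0.045 to 0.041 for Ddr2, -0.063 to 0.24 for Igf1r, -0.012 to 0.17 for Ddr1, -0.32 to 0.081 for Efna5 and -0.00075 to 0.084 for Ccnd1. The cause was not tested. Unknown depth and 3 libraries a group limit all values.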
